A study of Mus musculus with 8 samples.

Results

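RNA from 6 genes of the S100 family (S100a1, S100a4, S100a6, S100a10, S100a11 and S100a13) was examined in mouse blastocysts at embryonic day 4.5, out of 55471 gene identifiers in the files. They were taken by gene symbol, and the family was singled out because S100a1 was far lower in embryos with the Isca2 G77S form than in wild type. The files hold 17 S100 family genes in all, so 11 more are described more briefly. Messenger RNA was amplified with a single-cell kit and sequenced in 8 libraries of 3 genotypes. These were wild type (WT, n = 3), Isca2 -/- (KO, n = 2) and Isca2 G77S/G77S (G77S, n = 3). Isca2 encodes a mitochondrial protein that helps to build iron-sulfur clusters, and G77S is a form of it with 1 changed residue. Isca2+/- females given gonadotropins were mated with Isca2+/- males, and embryos of all groups were cultured. How many embryos went into a library, their sex and their litter are not labelled, nor is the cross behind the G77S embryos. Libraries of a group are not labelled as separate litters either, so the p-values rest on the spread among these 8 libraries, part of which may be technical.

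S100 proteins are small calcium-binding proteins, each with a pair of EF-hand motifs, that mostly work as dimers. On binding calcium they expose a surface that grips target proteins, among them annexins, cytoskeletal proteins and ion channels. S100A10 is the exception: it holds its binding shape without calcium and joins annexin A2 in a complex under the cell membrane. At this stage the blastocyst consists of an outer epithelium, the trophectoderm, around the epiblast and the primitive endoderm.

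The comparison of G77S with WT chose the family, so the S100 genes' values in that comparison, and in that of G77S with KO, which uses the same G77S libraries, are given as a description with no test. For genes outside the family, calls in G77S against WT come from the same fit. KO was compared with WT by edgeR's quasi-likelihood test over 13953 genes with Benjamini-Hochberg adjustment. The KO libraries took no part in choosing the family, but the WT libraries did. Levels are TMM-scaled CPM (counts scaled to a common library size) when libraries are compared, and TPM (the share of transcripts, which allows for length) when genes are compared.

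The libraries held 10323965 to 23842619 expected counts each. Isca2 RNA stood at 4.84 and 6.20 CPM in KO, against 86.9 to 173 CPM in WT and 89.1 to 133 CPM in G77S. Fragments averaged 182 to 186 bases in G77S, judged from length minus effective length, and 244 to 292 bases in WT and KO. Genotype and fragment length therefore cannot be told apart for G77S. These mRNAs are short, and the effective length that RSEM used for S100a1 was 384 to 431 bases in WT and KO and 492 to 496 bases in G77S.

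All 6 genes lie on chromosome 3 (GRCm38) and are protein coding. S100a1 runs from 90511034 to 90514392 on the minus strand and S100a13 from 90514435 to 90524581 on the plus strand. They point away from each other with 43 bases between their annotated starts. S100a4 (90603771 to 90606045) and S100a6 (90612882 to 90624181) follow in the same cluster on the plus strand. S100a11 (93520488 to 93526287) and S100a10 (93555080 to 93564643) form a separate pair on the plus strand. RefSeq windows from 250 bases before to 50 after a start (GRCm38.p6) were found for 5 of the 6 genes, all but S100a10. The first 2 windows below are shown because S100a1 and S100a13 share this stretch, the third because S100a4 gave no count in any library, and the fourth because S100a11 was the most abundant member. Capitals mark CG, the dinucleotide whose cytosine can be methylated.
S100a1, chr3:90514281-90514580, minus strand: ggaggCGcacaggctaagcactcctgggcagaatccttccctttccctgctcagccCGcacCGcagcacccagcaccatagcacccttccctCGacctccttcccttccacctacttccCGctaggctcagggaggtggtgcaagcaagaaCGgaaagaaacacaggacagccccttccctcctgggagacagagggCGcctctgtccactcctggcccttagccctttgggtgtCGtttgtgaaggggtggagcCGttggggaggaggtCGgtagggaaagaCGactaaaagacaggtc
S100a13, chr3:90514185-90514484, plus strand: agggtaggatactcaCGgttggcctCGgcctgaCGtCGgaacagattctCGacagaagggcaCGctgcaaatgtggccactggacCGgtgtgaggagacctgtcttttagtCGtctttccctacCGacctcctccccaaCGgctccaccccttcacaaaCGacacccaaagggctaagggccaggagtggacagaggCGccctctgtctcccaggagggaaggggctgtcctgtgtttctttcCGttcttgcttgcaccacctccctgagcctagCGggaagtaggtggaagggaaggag
S100a4, chr3:90603520-90603819, plus strand: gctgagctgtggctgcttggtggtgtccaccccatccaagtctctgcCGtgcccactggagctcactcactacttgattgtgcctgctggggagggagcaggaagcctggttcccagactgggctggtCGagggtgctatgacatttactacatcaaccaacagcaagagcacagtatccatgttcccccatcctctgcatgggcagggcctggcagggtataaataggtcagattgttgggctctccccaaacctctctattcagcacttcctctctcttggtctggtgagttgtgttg
S100a11, chr3:93520246-93520545, plus strand: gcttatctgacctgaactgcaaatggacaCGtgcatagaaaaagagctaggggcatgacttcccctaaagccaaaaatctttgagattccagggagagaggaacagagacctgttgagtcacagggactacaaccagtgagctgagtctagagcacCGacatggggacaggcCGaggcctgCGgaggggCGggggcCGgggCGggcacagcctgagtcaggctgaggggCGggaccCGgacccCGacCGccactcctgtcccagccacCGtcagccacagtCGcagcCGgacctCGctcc

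The windows of S100a1 and S100a13 share 204 bases, read from opposite strands, with 7 CG. In RefSeq the starts lie 105 bases apart, more than in GENCODE. The S100a1 window holds 11 CG, that of S100a13 14, that of S100a11 15, that of S100a6 6 and that of S100a4 2, where the median of all 32851 windows is 7. S100a4 thus has fewer CG than most windows, since 14.1% of windows have fewer still, and S100a11 has more than 65.4% of them. Short motifs were searched on both strands. TATAAA, the core of a TATA box, occurs once in the S100a4 window and in 13.6% of all windows. GGGCGG, a GC box, occurs 3 times in the S100a11 window and in 35.7% of all windows. CCAAT occurs once in the S100a6 window and in 37.4% of all windows. GGAATG and GCCNNNGGC occur in none of the 5 windows, and in 14.7% and 16.6% of all windows. The shared stretch of S100a1 and S100a13 holds none of these motifs. A match is a run of letters, not a measured binding site.

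In WT, S100a11 was the most abundant member and S100a4 was not detected. The 6 genes together made up 0.564, 0.517 and 0.455% of transcripts in WT replicates 1, 2 and 3, and S100a11 alone was 82.6 to 85.6% of that sum. On the TPM scale the WT order was S100a11 (4330 ± 539, SD), S100a10 (561 ± 18.5), S100a1 (154 ± 31.0), S100a13 (40.8 ± 22.2) and S100a6 (30.4 ± 11.2). The ranges of S100a13 and S100a6 overlapped in WT, and no other neighbours in this order did. In KO the order was the same, with no overlap between neighbours. In G77S, S100a6 came next after S100a11 and S100a10, at 105 ± 39.0 TPM. S100a13 (5.59 ± 3.92 TPM) and S100a1 (4.05 ± 2.74 TPM) came below it with overlapping ranges. The summed TPM of the 6 genes was 4550 to 5640 in WT, 4160 and 5180 in KO and 3580 to 4330 in G77S. The TPM sum lay lower in every G77S library than in every WT library, but on summed CPM G77S (1220 to 1750) overlapped WT (1690 to 2070). Without S100a11 it was 753 to 812 in WT, 1370 and 1480 in KO and 741 to 1200 in G77S, so that KO lay above both other groups.

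**Figure D1:**
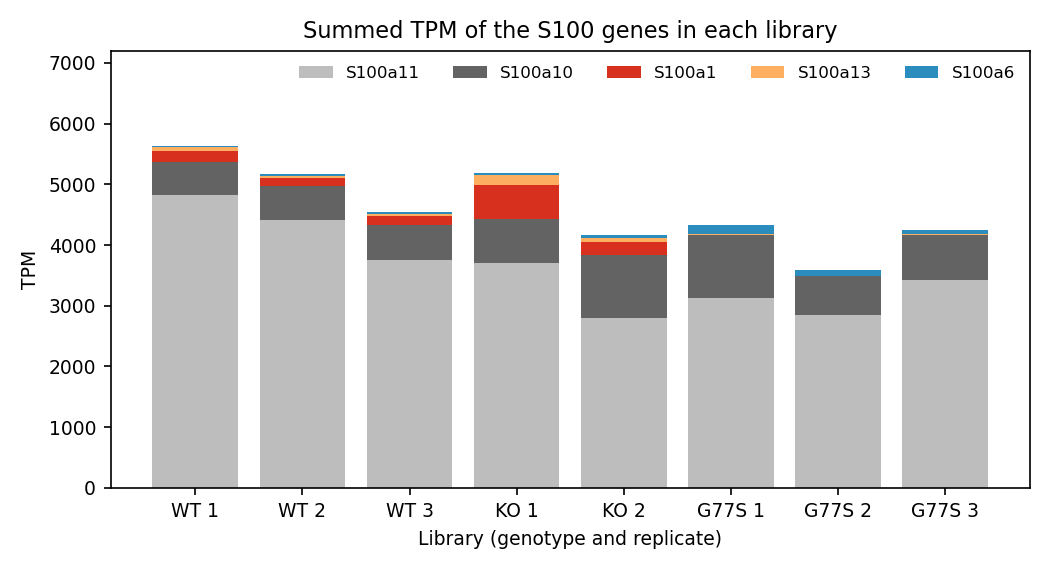
Summed TPM (vertical axis) of the 5 detected S100 genes in each of the 8 libraries (horizontal axis), with 1 colour per gene. S100a11 fills 67.2 to 85.6% of every bar, the S100a1 part is widest in the KO libraries, and S100a1 and S100a13 are barely visible in G77S.

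S100a1, whose protein is best known for regulating calcium release and uptake in muscle, had very different levels in the 3 genotypes. It stood at 85.5, 74.9 and 87.9 CPM in WT replicates 1, 2 and 3. In KO it stood at 318 and 139 CPM. In G77S it stood at 3.85, 1.43 and 0.954 CPM, from 55, 21 and 11 counts. No 2 groups overlapped: each KO library was above each WT library, and each G77S library was below both. The fitted log2 fold change was -5.30 (SE 0.53) in G77S against WT, a level 39.3-fold lower, and -6.76 (SE 0.57) in G77S against KO. In KO against WT it was 1.46 (SE 0.47, adjusted p = 0.225), so the call was not made although both KO libraries lay above WT. Without KO replicate 1 the value was 0.75 (adjusted p = 0.6). These are bulk samples, in which fewer cells of a type and less RNA per cell cannot be told apart.

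**Figure D2:**
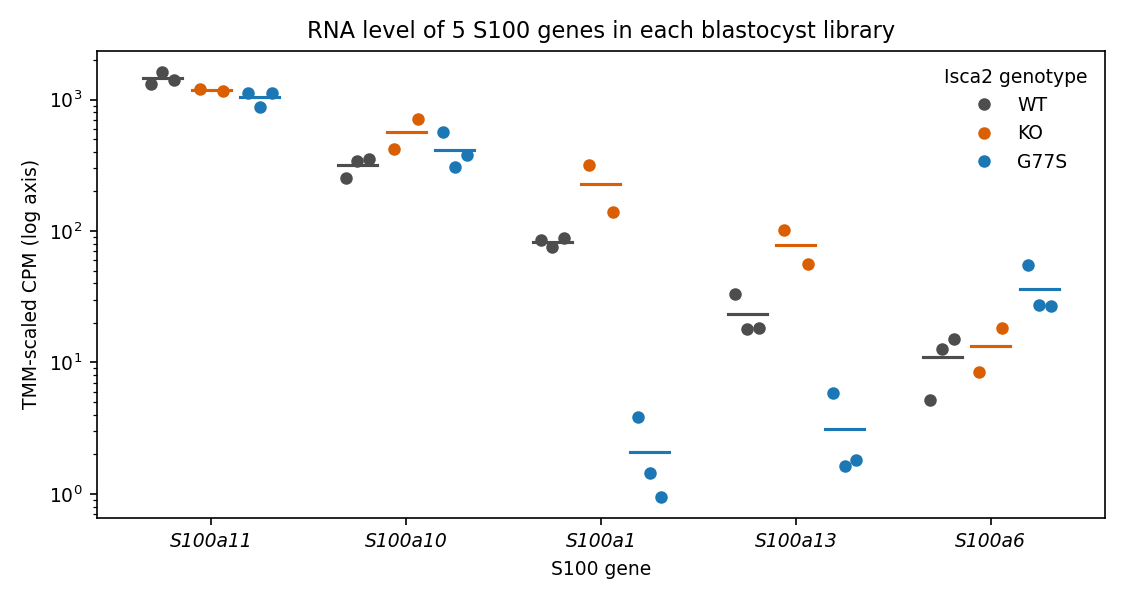
TMM-scaled CPM on a log axis for 5 S100 genes (horizontal axis), with 1 point per library and a short line at the mean of each genotype. S100a1 and S100a13 are highest in KO and lowest in G77S, S100a6 is highest in G77S, and S100a11 and S100a10 are the highest 2 genes in every library.

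S100a13, which helps to export FGF1 and interleukin 1 alpha from cells without a signal peptide, showed the same order of genotypes as its head-to-head neighbour. Its levels were 33.3, 18.1 and 18.4 CPM in WT. They were 102 and 55.8 CPM in KO and 5.88, 1.63 and 1.82 CPM in G77S. Again no 2 groups overlapped. The fitted log2 fold change was -2.90 (SE 0.55) in G77S against WT, a level 7.44-fold lower, and -4.65 (SE 0.61) in G77S against KO. In KO against WT it was 1.76 (SE 0.55, adjusted p = 0.216), not called, and DESeq2 gave 1.78 (adjusted p = 0.0485). The 2 genes did not keep a fixed ratio. S100a1 had 2.82, 4.51 and 5.29 times the TPM of S100a13 in WT, and 3.45 and 2.73 times in KO. In G77S the ratio was 0.706, 0.945 and 0.566, below 1 in each library. RSEM's abundance-weighted transcript length, which moves when the mix of isoforms moves, was 669.1 to 677.0 bases for S100a1 over the 8 libraries. It was 715.0 bases in every library for S100a13. The 2 gene models do not overlap, so reads of one are not split with the other.

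**Figure D3:**
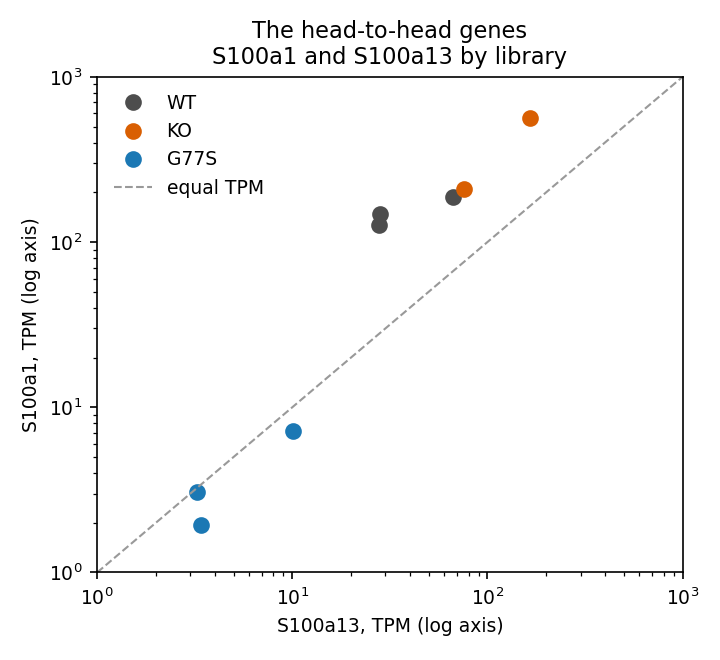
TPM of S100a1 (vertical) against TPM of S100a13 (horizontal), both on log axes, with 1 point per library coloured by genotype and a dashed line where both are equal. The WT and KO points lie above the line with ratios of 2.73 to 5.29, and the 3 G77S points lie below it at the lower left with ratios of 0.566 to 0.945.

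S100a10, the annexin A2 partner, and S100a11, which also binds annexins, were abundant in every library. S100a10 stood at 253, 341 and 355 CPM in WT, 418 and 711 CPM in KO, and 564, 308 and 377 CPM in G77S. KO lay above WT (fitted difference 0.83 on the log2 scale, SE 0.31, adjusted p = 0.293), and G77S overlapped both. Anxa2 itself had 672, 663 and 748 CPM in WT and 608 and 915 CPM in KO. Its difference was 0.13 on the log2 scale (SE 0.26, adjusted p = 0.895). On TPM, S100a10 had 1.08 to 1.41 times the level of Anxa2 in WT, 2.01 and 2.12 times in KO and 1.02 to 1.65 times in G77S. The KO ratio was thus above that of every other library.

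S100a11 stood at 1310, 1620 and 1410 CPM in WT, 1210 and 1170 CPM in KO, and 1120, 880 and 1120 CPM in G77S. Each WT library lay above every KO and G77S library. The log2 fold change was -0.29 (SE 0.20, adjusted p = 0.599) in KO against WT and -0.47 (SE 0.18) in G77S against WT. With the trend of each library over gene length removed, the latter was -0.95.

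S100a6, also called calcyclin, a partner of annexins and of calcyclin-binding protein, was the one member that was higher in G77S than in both other genotypes. It had 54.9, 27.3 and 27.0 CPM in G77S, against 5.19, 12.7 and 15.1 CPM in WT and 8.44 and 18.4 CPM in KO. The fitted log2 fold change was 1.73 (SE 0.51) in G77S against WT and 1.44 (SE 0.58) in G77S against KO. WT and KO overlapped (log2 fold change 0.29, SE 0.55, adjusted p = 0.896). Its direction in KO turned to -0.05 without WT replicate 1 and to -0.38 without KO replicate 2. S100a4, which binds non-muscle myosin and is widely used as a fibroblast marker, had 0 counts in all 8 libraries. A count of 0 allows up to 3 counts, which is 0.139 to 0.298 CPM in these libraries. An annotated gene that overlaps it, Gm42674, had 0 counts as well. Of the 10 fibroblast and mesenchyme genes, 0 to 2 had a count in a library, and their summed TPM was 0.0 to 2.58.

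**Figure D4:**
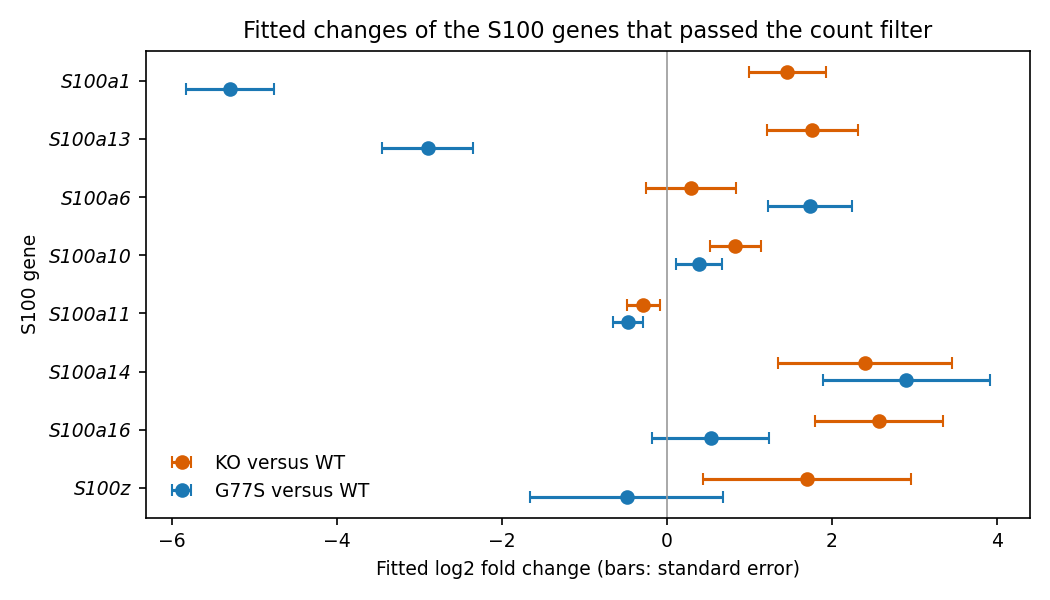
Fitted log2 fold changes (horizontal axis) with their standard errors for the 8 S100 family genes that passed the low-count filter, in KO against WT and in G77S against WT. S100a1 and S100a13 lie to the right of 0 in KO and to the left of 0 in G77S, and S100a6 lies to the right in G77S.

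Of the 6 members, 5 passed the low-count filter, and edgeR called 0 of them in KO against WT, where 0.122% of all tested genes were called in either direction. At an unadjusted p under 0.05 there were 3 of them, S100a1, S100a10 and S100a13, beside 13% of all tested genes. DESeq2 called 1, S100a13, and limma-trend on log2(TPM + 1) called 0. Without the filter edgeR called 2, S100a1 (adjusted p = 0.00105) and S100a13 (adjusted p = 0.00478). The KO libraries lay above the WT libraries without overlap for 3 members and below them for 1, S100a11, where 13.1% and 12.5% of all tested genes did so. The median log2 fold change of the 5 members was 0.83, beside -0.06 for all tested genes. A missing call does not show that a level was the same.

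In G77S against WT, 3 of the 5 members lay below WT without overlap (S100a1, S100a11 and S100a13) and 1 above it (S100a6). Over all tested genes these shares were 11.8% and 17.2%. As the family was chosen on this comparison, nothing is read from these counts. In G77S against KO, the same 3 genes lay below KO and S100a6 above it, where 20% and 24.9% of all tested genes did so. Both mutant comparisons share libraries with each other, through WT or G77S, and are not independent.

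Of the 11 other family genes, 3 passed the filter, and edgeR called 0 of them in KO against WT. All 3 had higher levels in both KO libraries than in every WT library, as did 13.1% of all tested genes. S100z had 22 and 29 counts in KO, 6 to 8 in WT and 3 to 5 in G77S. It thus passed the filter through the KO libraries alone, and its higher KO level is partly set by that filter. S100a16 stood at 3.29, 1.99 and 11.2 CPM in WT, 24.7 and 41.2 CPM in KO, and 15.5, 4.49 and 3.99 CPM in G77S. Its log2 fold change in KO against WT was 2.57 (SE 0.78, adjusted p = 0.207), and DESeq2 gave an adjusted p of 0.0279 and edgeR without the filter 0.00089. It was 3.63 without WT replicate 3. S100a14 stood at 1.51, 2.58 and 0.0463 CPM in WT, 5.67 and 8.53 CPM in KO, and 17.1, 9.18 and 3.99 CPM in G77S. Its log2 fold change in KO was 2.40 (SE 1.06, adjusted p = 0.375), and in G77S it was 2.90 (SE 1.01) against WT. The KO value was 3.20 without WT replicate 2 and 1.81 without WT replicate 3. S100z had 0.335 to 0.596 CPM in WT, 1.3 and 1.54 CPM in KO (log2 fold change 1.70, SE 1.26, adjusted p = 0.62) and 0.204 to 0.434 CPM in G77S. At an unadjusted p under 0.05 there were 2 of these 3 in KO, beside 13% of all tested genes, and limma-trend on log2(TPM + 1) called 0. S100a14 and S100a16 are the next S100 genes beyond S100a13 on the chromosome. Their mean levels were lowest in WT, but for S100a16 the G77S mean rests on replicate 1, as the other G77S libraries lay within the WT range. Its log2 fold change in G77S against WT was 0.53 (SE 0.71), -0.38 without G77S replicate 1 and 1.59 without WT replicate 3.

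Several family genes were seen in 1 library or 1 genotype, at low counts. S100g, encoding calbindin D9k, a vitamin D-dependent calcium carrier, had 263 counts in KO replicate 1, 5 in KO replicate 2, 0 or 1 in the WT libraries and 0 in G77S, so its KO level rests on 1 library. S100a8 and S100a9, the subunits of calprotectin of neutrophils and macrophages, had 90 and 42 counts in WT replicate 3. Elsewhere S100a8 had 0 or 1 and S100a9 0 to 3. Of 13 macrophage and neutrophil genes, S100a8 and S100a9 among them, 7 had a count in WT replicate 3, with 1 count each of Ptprc and Tyrobp. KO replicate 2 had counts of 9 of the 13, with 4 of Ptprc and 8 of Tyrobp, but 1 of S100a8 and 0 of S100a9. Elane, Mpo and Ly6g were at 0 in all 8 libraries. The summed TPM of that list was 38.6 to 104 in WT, 10.9 and 13.4 in KO and 13.6 to 20.2 in G77S. Cd68 alone gave 103.9 of the 104 TPM in WT replicate 1, 37.4 of 38.6 in replicate 2 and 21.8 of 39.3 in replicate 3. Their part in the S100a8 and S100a9 counts was not tested. S100a3 had 22, 8 and 6 counts in the G77S libraries and 0 in the 5 others, at least 14.7-fold higher in G77S than in WT when WT is set to 3 counts over the group. Its gene model overlaps those of S100a2 and Gm42674, so its reads are uncertain. S100a2 had 3 counts in KO replicate 1 and S100b 2 counts in G77S replicate 2. S100a5 and S100a7a had 0 counts in every library.

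None of the tested S100 binding partners passed edgeR's test in KO against WT. In a list of 33 partners, targets and receptors, 32 were in the files, 26 were tested, and edgeR called 0 higher and 0 lower. Their median log2 fold change was -0.20, beside -0.06 for all tested genes. At an unadjusted p under 0.05 there were 3, beside 13% of all tested genes. DESeq2 called 2 and limma-trend 1, where they called 782 and 95 over all genes. The most abundant were Hsp90aa1 (log2 fold change -0.22, SE 0.17, adjusted p = 0.641), Sugt1 (-0.12, SE 0.22, adjusted p = 0.887) and Tpm1 (0.25, SE 0.21, adjusted p = 0.678). For G77S against WT, where 3.39% of all tested genes were called, 1 gene of this list was called higher and 6 lower (median -0.78, beside 0.03 for all tested genes). Among the lower ones, chosen here after their values were seen, was Ahnak, a large scaffold protein that binds the S100A10 and annexin A2 complex. It stood at 76.0 ± 13.2 CPM in WT and 32.3 ± 6.43 CPM in G77S (log2 fold change -1.23, adjusted p = 0.0396). Tpm1, a tropomyosin gene, stood at 1090 ± 71.5 and 575 ± 107 CPM (-0.93, adjusted p = 0.0278). Iqgap1, a cytoskeletal scaffold gene, stood at 139 ± 25 and 66.5 ± 9.66 CPM (-1.06, adjusted p = 0.0378). Further genes of the list were picked after their values were seen. The release partners of S100a13 were nearly silent, with Fgf1 at 0 counts in every library and Il1a at 0.0795 CPM on average in KO and 0 elsewhere. Of the calcium channels that S100a1 regulates in muscle, Ryr2 had 0 counts, and Ryr1 stood at 8.03 ± 2.61 CPM in WT, 7.23 ± 0.0402 CPM in KO and 1.77 ± 0.94 CPM in G77S (G77S against WT -2.17, adjusted p = 0.078).

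Annexins, the main calcium-dependent membrane partners of S100 proteins, had 10 tested genes of 12. In KO 0 were called by edgeR (median log2 fold change -0.02, beside -0.06 for all tested genes). At an unadjusted p under 0.05 there were 4, beside 13% of all tested genes, and DESeq2 called 2, of 782 over all genes. Besides Anxa2, the most abundant were Anxa3 (log2 fold change 0.90, SE 0.30, adjusted p = 0.239) and Anxa7 (0.20, SE 0.28, adjusted p = 0.842). Among annexins in G77S against WT, 0 were called by edgeR, where 3.39% of all tested genes were (median -0.12, beside 0.03). There were 4 at an unadjusted p under 0.05, and DESeq2 called 2, of 1666 over all genes. Single annexins, chosen after their values were seen, differed in both directions. In KO, Anxa5 was higher (2.86, SE 0.51, adjusted p = 0.0669) and Anxa4 lower (-2.18, SE 0.52, adjusted p = 0.138). In G77S against WT, Anxa5 was higher (1.42, SE 0.46, adjusted p = 0.117). Anxa1 was lower there (-4.22, SE 1.15, adjusted p = 0.0745), with 35, 4 and 0 counts in G77S. Among 48 other EF-hand calcium-binding genes, 41 were tested and 2 rose in KO by edgeR, where 0.122% of all tested genes were called. At an unadjusted p under 0.05 there were 11, beside 13% of all tested genes. DESeq2 called 7, where it called 782 over all genes. The median log2 fold change was -0.16, beside -0.06 for all tested genes. Rcn1, a calcium-binding protein of the endoplasmic reticulum, had 668 counts in KO and 1 in WT, or 925 times as much per library size (95% counting limits 165 and 36600) (adjusted p = 0.0488). With 6 counts over the G77S libraries, Rcn1 passed the low-count filter through the KO libraries alone, so its being tested depended on its high KO counts. Efcab10 stood at 8.96 ± 3.15 CPM in KO and 0.151 ± 0.0454 CPM in WT (log2 difference 5.77, SE 0.77, adjusted p = 0.0271). Its WT level rests on 3, 1 and 4 counts, so it passed the low-count filter through the mutant libraries alone. Efcab10 was also higher in G77S, at 4.51 ± 0.939 CPM (G77S against WT 4.79, SE 0.72, adjusted p = 0.00783). Of the 41, 2 were called higher and 4 lower in G77S against WT, beside 3.39% of all tested genes called. Sri, encoding sorcin, stood at 1410 ± 163 CPM in WT, 1410 ± 430 CPM in KO and 185 ± 94.8 CPM in G77S (G77S against WT -2.93, adjusted p = 0.00336, chosen after its values were seen). Of the 7 S100-fused proteins, large skin proteins whose genes sit in the same region, 1 was tested, Tchh, with 50 counts over the WT libraries and 0 in KO (adjusted p = 0.336).

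Of 22 protein-coding genes within 250 kb of a member, S100 genes aside, 11 were tested and edgeR called 0 in KO against WT. Their median log2 fold change was 0.01, beside -0.06 for all tested genes. Of the 11, 3 had an unadjusted p under 0.05, beside 13% of all tested genes. DESeq2 called 1, where it called 782 over all genes. The G77S against WT median was -0.22 and the lowest value -1.74, with 0 called by edgeR or DESeq2 and 1 at an unadjusted p under 0.05. Chtop, an mRNA export factor gene that lies 1536 bases from S100a1, differed by 0.01 on the log2 scale (SE 0.41, adjusted p = 1.0) in KO and -0.22 (SE 0.36) in G77S. Snapin and Ilf2, the next genes, had 0.08 (SE 0.26) and 0.33 (SE 0.29) in KO and -0.66 (SE 0.23) and 0.49 (SE 0.26) in G77S.

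**Figure D5:**
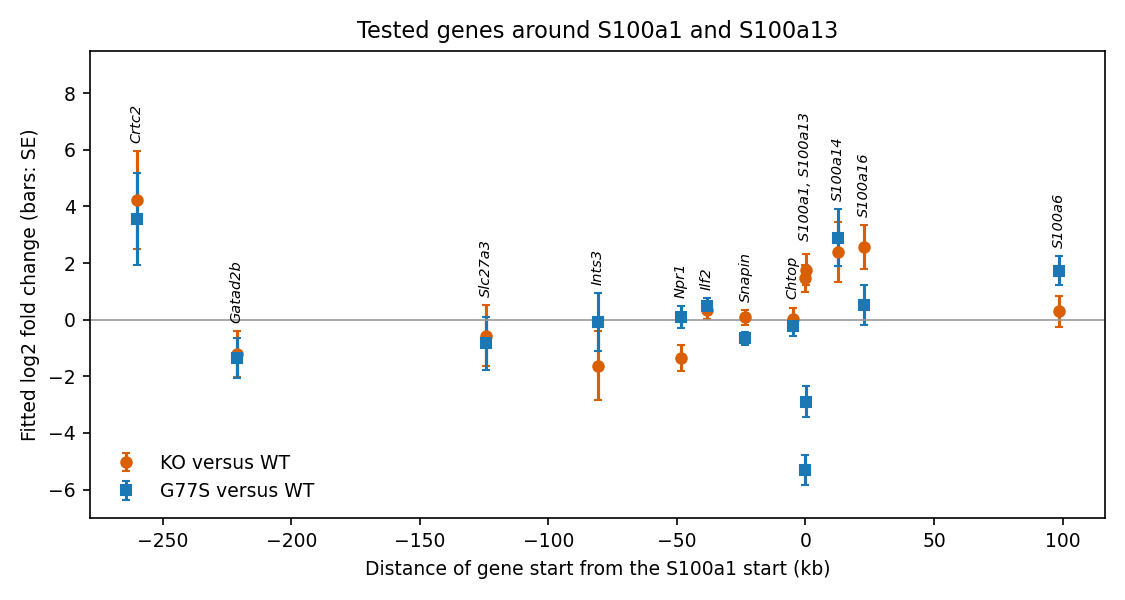
Fitted log2 fold change with its standard error (vertical axis) of the tested genes around S100a1 and S100a13, by the distance of their start from the S100a1 start in kb (horizontal axis), in KO against WT and G77S against WT. Chtop lies at 0.01 in KO and -0.22 in G77S, Snapin at 0.08 and -0.66, and Ilf2 at 0.33 and 0.49, while S100a1 and S100a13 lie at 1.46 and 1.76 in KO and at -5.30 and -2.90 in G77S.

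Likeness between genes was measured as the Pearson correlation of log2(CPM + 1) over the 8 libraries, among tested genes with a mean of at least 10 CPM. Genes with Gm, Rik, clone, mt- or -ps names were left out, so places are among the rest. The libraries fall into genotypes, so a high value mostly says that the genotype means are alike. The genes most like S100a1 were Rsrc1 (0.992), Nmrk1 (0.987), Hibadh (0.987), Emp2 (0.984) and Adh1 (0.971). Of 5716 genes, S100a13 came at place 9 (0.969), and S100a1 came at place 5 among those most like S100a13. By Spearman's rho, or without the G77S libraries, 0 of the 5 named genes were still among the 5 most like S100a1. The nearest to S100a13 were Acat1 (0.993) and Tgif1 (0.974), and to S100a6 Rpl39 (0.979) and Sem1 (0.977). Those nearest to S100a10 were Exosc7 (0.958) and Triml2 (0.943), and to S100a11 Mat2b (0.951) and Xbp1 (0.944). For these 4 members too, 0 of the named genes came among the nearest 2 by Spearman's rho or without the G77S libraries. Among the members, S100a6 ran against S100a1 (-0.75) and S100a13 (-0.70).

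Markers of the blastocyst's own cell types differed between the genotypes beside these values. All 18 trophectoderm genes had counts in every library. Their summed TPM was 36600 to 44700 in WT, 35200 and 37600 in KO and 12300 to 15500 in G77S, so that G77S, where S100a1 and S100a13 were lowest, was also lowest here. Of the 18, 8 were called lower and 1 higher in G77S against WT (median log2 fold change -1.34), beside 3.39% of all tested genes. Fabp3 alone made up 27446 of the 44700 TPM in WT replicate 1, 22991 of the 37600 in KO replicate 1 and 8888 of the 15500 in G77S replicate 1. The fall of the sum in G77S thus rests largely on 1 gene. KO, where both S100 genes were highest, overlapped WT on this sum. Of the 18, edgeR called 0 in KO, with 5 at an unadjusted p under 0.05, beside 13% of all tested genes. DESeq2 called 4, where it called 782 over all genes. The median log2 fold change of the 18 in KO was -0.73, beside -0.06 for all tested genes. The summed TPM of 14 epiblast genes was 270 to 412 in WT, 542 and 953 in KO and 642 to 973 in G77S. Their median log2 fold change in KO against WT was 2.0, beside -0.06 for all tested genes. Of these 14, 1, Utf1, was called higher in KO, beside 0.122% of all tested genes called. At an unadjusted p under 0.05 there were 9, beside 13%. In G77S against WT the median was 1.92, beside 0.03, and 3 were called higher, beside 3.39%. Esrrb of this list had 0 counts over the WT libraries and passed the low-count filter through the mutant libraries alone, so its part in these medians is set by that filter. For 16 primitive endoderm genes the summed TPM was 392 to 552 in WT, 480 and 769 in KO and 316 to 603 in G77S, with overlapping ranges. Dab2 alone gave 516 of 552 TPM in WT replicate 1, 438 of 456 in replicate 2 and 368 of 392 in replicate 3. It gave 426 of 769 and 338 of 480 TPM in KO replicates 1 and 2, and 231 to 568 TPM in G77S. The overlap of these sums thus rests largely on 1 gene. In WT, 7 to 12 of the 16 had a count, against 15 and 16 in KO. The 14 that were tested had a median log2 fold change of 4.92 in KO against WT, beside -0.06 for all tested genes. Of them 2, Srgn and Aqp8, were called higher, where 0.122% of all tested genes were called. DESeq2 called 8, of 782 over all genes. In G77S against WT the median was 2.25, beside 0.03, and 2, Col4a1 and Aqp8, were called higher, beside 3.39% of all tested genes called. Aqp8, Col4a1, Col4a2 and Cubn had 1, 5, 10 and 4 counts over the WT libraries. They passed the low-count filter through the mutant libraries alone. Both medians, and the calls of Aqp8 and Col4a1, are thus partly set by that filter. The part of the cell type markers in the S100 levels was not tested. Cumulus and granulosa genes summed to 0.0 to 0.37 TPM, with 8 or 9 of the 9 genes at 0 in each library. Erythroid genes summed to 0.31 to 5.96 TPM in all libraries. Oocyte and zygote genes summed to 19.5 to 39.9 TPM in WT, 19.0 and 33.4 in KO and 55.3 to 70.6 in G77S, so G77S lay above both other groups. Most of this sum was Ooep. Uterine and oviduct epithelium genes summed to 120 to 226 TPM, with 3 or 4 of the 7 genes detected.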

How the data were processed

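Each library has 1 gene table from RSEM. The authors deposited expected counts (estimates, with multi-mapped reads divided among genes), TPM, FPKM, length and effective length, per the file headers. Tools named in the submitters' processing notes are RSEM (1.3.1) for counting, after STAR (2.6.1c) and Trim Galore (0.4.5), and DESeq2 (1.42.1), with the mm10 or GRCm38 build. Annotation release and filters are not stated there. The authors scaled TPM and FPKM within a library, and the deposited FPKM values were not used. Symbols came from GENCODE M21, which matched 55144 of 55471 identifiers (99.4%).

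Expected counts were rounded. The main test was edgeR 4.0.16 in R 4.3.3 with TMM scaling and the group-wise low-count filter (13953 genes), with 1 quasi-likelihood model over all 8 libraries. Calls were made at a Benjamini-Hochberg adjusted p under 0.05 over all tested genes. Every adjusted p is from this test unless another tool is named. The SE is the log2 fold change divided by the square root of F. Counting intervals and limits cover counting error only, since reads carry no molecular identifiers. As alternatives, the scaling (RLE), the filter (none, or 5 CPM in 2 libraries), the libraries fitted (the 2 groups alone, or each library left out), a replicate block, a gene-length offset, DESeq2 1.42.0 and limma 3.58.1 on log2(TPM + 1) and log2(TPM + 0.1) were run. The steps were tested on simulated counts with known changes. In KO against WT they called 0.775% of genes changed 2-fold, 25.7% of those changed 4-fold and 38.2% of those changed 8-fold. Of the calls, 7.45% were false. Most changes of these sizes were therefore missed. The members and lists were chosen with earlier results of these data known. Genes named from the lists are those called in KO, up to 4, or otherwise the 3 most abundant, and others are marked as chosen after their values were seen. Family genes with at least 10 counts in a library are named. No protein sequences were used here.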

Additional observations from a re-analysis of the deposited data

How the results depend on the processing

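The log2 fold changes of S100a1, S100a10, S100a13, S100a14, S100a16 and S100z in KO against WT stayed positive, and that of S100a11 negative, under every alternative that gave a value. They ran from 0.75 to 1.94 for S100a1, 1.26 to 2.13 for S100a13, 0.40 to 1.17 for S100a10, 1.81 to 3.20 for S100a14, 2.16 to 3.63 for S100a16 and -0.42 to -0.20 for S100a11. S100a6 reversed, to -0.05 when WT replicate 1 was left out and -0.38 without KO replicate 2, and it reached 0.74 without KO replicate 1. The number of members called in KO went from 0 to 2 with no filter and 1 with DESeq2. In G77S against WT, S100a1 ran from -6.10 to -4.95 and S100a13 from -3.76 to -2.54.

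The counts of all genes called depend strongly on the tool and filter, and the cause was not tested. In KO against WT 17 became 547 with no filter, 60 with the stricter filter, 11 with the 2 groups alone, 782 with DESeq2, and 95 and 86 with limma at pseudocounts of 1 and 0.1. It ran from 0 (without KO replicate 2) to 42 (without KO replicate 1) when 1 library was left out. In G77S against WT 473 became 1336 with no filter, 746 with the stricter filter, 1666 with DESeq2, 1466 and 1307 with limma, and 748 with the length offset, and ran from 86 (without G77S replicate 2) to 638 (without WT replicate 1). In G77S against KO 585 became 1411 with no filter, 1009 with the 2 groups alone, 1830 with DESeq2, 1849 and 1744 with limma, and 878 with the length offset, and ran from 161 (without G77S replicate 2) to 949 (without WT replicate 1). Deviations from the group means had correlations of -0.0442 to 0.0987 between same-numbered libraries. With 2 or 3 libraries in a group, these cannot show whether same-numbered libraries share a litter or a batch. For KO, with 2 libraries, the 2 values mirror each other by construction. The replicate block gave 8, 411 and 600 calls in the 3 comparisons and called 0 members in KO. It gave S100a1 a log2 fold change of 1.17 in KO against WT, where the main fit gave 1.46. The log2 ratio of summed member TPM in KO against WT was -0.13, and became 0.14 on summed CPM and 0.86 without S100a11. At the depth of these libraries, genes with a few counts, such as S100a3, cannot be compared further.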

Other observations

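Genes that start head to head can be set beside S100a1 and S100a13. Among 418 such pairs of tested protein-coding genes (diverging starts within 200 bases, a definition chosen after the data were seen), 2 pairs (0.478%) had both genes at a log2 fold change of -2 or less in G77S against WT. They were S100a1 with S100a13 and Smc1b with Ribc2, and 1 pair, Bhmt2 with Dmgdh, had both at 2 or more. In KO against WT, 7 pairs (1.67%) had both genes at 1 or more, S100a1 with S100a13 among them, and 12 pairs (2.87%) had both at -1 or less. S100a1 with S100a13 was chosen on these data, so its place among the pairs is a description.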
